A study of Mus musculus with 20 samples.

Results

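A group of 45 probe sets was higher in mouse epidermis after wax stripping and was not raised by imiquimod, out of 35080 distinct probe sets on the array (35556 before identical rows were merged). They were chosen by measured values, on the scale log2(intensity + 16) and from the means of the 2 arrays of each group. In each genotype, wax-stripped skin had to exceed unaffected recovery skin by at least 1 and unaffected imiquimod skin by at least 0.5, and the imiquimod-injured area had to exceed the unaffected area by less than 0.3. The wax conditions alone kept 296 probe sets, and the imiquimod condition left 45 of them. The 16 arrays of these conditions therefore fixed the pattern. Every comparison that includes any of them is given as a description, with no test used as support. Planned fits of such comparisons are listed at the end for their dependence on the processing only. The 4 arrays of injured recovery skin played no part in the choice, and the genotypes are tested there alone.

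The arrays measured RNA of dorsal epidermis from C57B6 mice, in 10 groups of 2 biological replicates. Each of 5 conditions was sampled in Grhl3 WT and in Grhl3 cKO (conditional knockout) mice, and the sample titles of both genotypes carry Krt14cre, a Cre recombinase under the keratin 14 promoter, which is active in basal keratinocytes. The conditions were skin on day 4 after wax stripping (labelled male), unaffected and injured areas of imiquimod-treated mice on day 4 (labelled female), and unaffected and injured areas on day 8, in recovery from imiquimod (labelled male). No ages are given in the labels. The wax experiment has no unwaxed control here, so wax stripping and experiment cannot be told apart in the differences from recovery skin, nor wax stripping and labelled sex in those from imiquimod skin.

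Wax stripping pulls off the outer layers of the epidermis, and keratinocytes answer such a physical wound by proliferating, migrating and rebuilding the barrier. Imiquimod activates Toll-like receptors of immune cells and is used in mice to produce psoriasis-like inflammation with thickened epidermis. Grhl3 is a transcription factor of keratinocyte differentiation, barrier formation and wound closure.

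No member is named as a gene, because the values did not bear out the pairing of row IDs with gene symbols. Labels of ribosomal protein genes, which all cells express strongly, sat in the middle of the signal range (217 probe sets, median percentile 54.5), and so did labels of olfactory receptors, which skin is not known for (1035 probe sets, median percentile 52.2). Members are therefore lettered from A to AS, in falling order of the smaller of their WT and cKO wax differences. The Grhl3 transcript was not read for the same reason. On all 5 probe sets that parted the arrays labelled female from the other arrays labelled male, the 4 injured recovery arrays, labelled male, lay at the female level. None of the 5 is a member. Where injured recovery skin is compared with unaffected recovery or wax-stripped skin, the condition and this mismatch cannot be told apart. In the comparison of genotypes in injured recovery skin, all 4 arrays share it, and its part there was not tested.

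**Figure D1:**
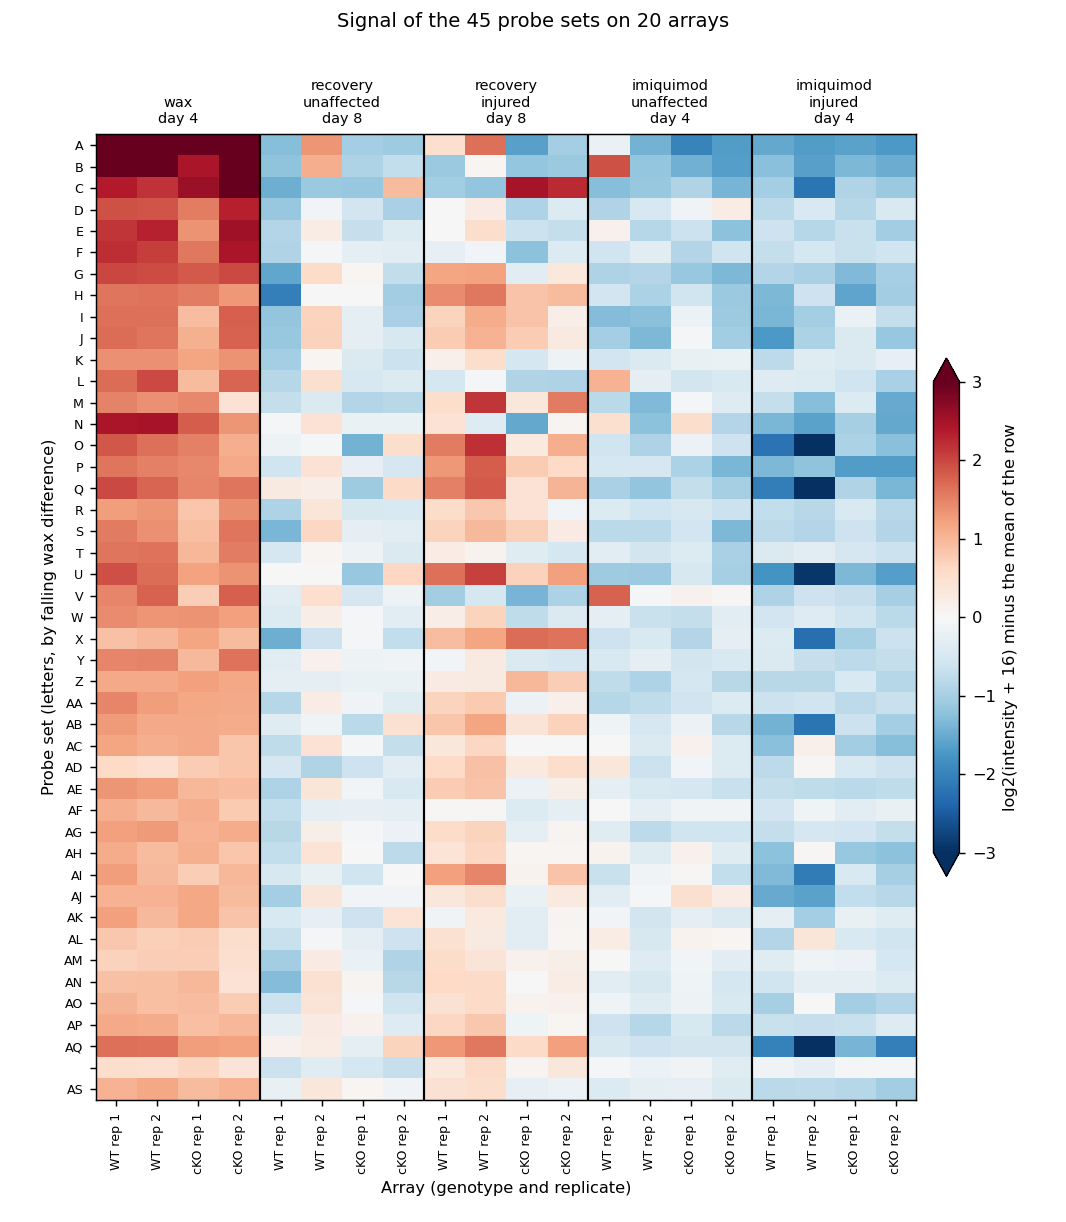
Signal of the 45 probe sets (rows, lettered, 1 row without its letter) on 20 arrays (columns, by condition, genotype and replicate), as log2(intensity + 16) minus the mean of the row; colours are capped at 3 in both directions. The wax arrays are high in every row by choice, and injured recovery skin is intermediate in many rows.

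The widest differences between wax-stripped and unaffected recovery skin were in A and B. Probe set A (row ID 10388352) read 3210 and 3722 intensity units in wax-stripped WT skin and 2309 and 3770 in wax-stripped cKO skin. In unaffected recovery skin it read 95.1 and 651 in WT and 115 and 112 in cKO mice. All 4 wax arrays lay above the other 16, and the log2 difference was 3.67 in WT and 4.51 in cKO mice. Probe set B read 5631 and 7668 in wax-stripped WT skin and 3171 and 7419 in wax-stripped cKO skin, against 237 and 1223 and against 292 and 333 in unaffected recovery skin. Its highest array outside wax, at 2155, was replicate 1 of unaffected WT imiquimod skin, whose replicate 2 read 243.

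Probe sets D, E and F had the same form at lower levels. D read 496 and 487 in WT and 375 and 669 in cKO wax-stripped skin. E read 1143 and 1284 in WT and 650 and 1512 in cKO wax-stripped skin. F read 405 and 366 in WT and 256 and 482 in cKO wax-stripped skin. In each of these 3 the wax arrays lay above all others. Outside wax, D read at most 144, E at most 364 and F at most 71.9 on any array. Probe set C differed from them. It read 414 and 354 in WT and 483 and 684 in cKO wax-stripped skin, and its only other high group was injured cKO recovery skin. Its lowest array was injured WT imiquimod skin, replicate 2, at 2.02, where the added 16 sets most of the log2 value.

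Over all 45, the median wax minus unaffected recovery difference was 1.59 in WT and 1.46 in cKO mice, where 1 was the minimum by choice. In RNA from epidermis as a whole, more cells of a type and more RNA per cell cannot be told apart. Mean wax intensities ran from 163 to 12623 in WT and from 119 to 10046 in cKO mice. The brightest was Q (row ID 10492803), at 13626 and 11620 in WT and 9527 and 10565 in cKO wax-stripped skin. B and AQ came next. At the edge of the choice, AS passed by 0.01 and AQ by 0.05 on the log2 scale, and the nearest 3 probe sets outside had a wax difference of 0.99 in cKO, 0.99 in WT and 0.97 in cKO mice where 1 was needed. AS read 551 and 597 in wax-stripped and 217 and 328 in unaffected recovery WT skin, a lesser example of the same order, with no overlap between these groups.

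Imiquimod could not raise these probe sets by the rule, but the rule set no limit to a fall, which favours negative differences here. The median log2 difference of the injured from the unaffected imiquimod area was -0.24 in WT and -0.23 in cKO mice. In 19 of the 45 it lay within 0.3 of 0 in both genotypes. The injured area was lower by at least 1 for 10 members in WT mice (5.43% of all probe sets tested) and for 5 in cKO mice (4.82% of all). These members were not unmoved, and the whole is best described as not raised by imiquimod. AQ read 1153 and 1031 in unaffected and 380 and 131 in injured WT imiquimod skin, and 1095 and 1086 against 603 and 376 in cKO skin. O read 470 and 370 in unaffected and 143 and 55.1 in injured WT imiquimod skin, and 633 and 466 against 368 and 292 in cKO skin. The areas did not overlap in either probe set. Q, which lies near both in the deposited table, read 1757 and 1506 against 811 and 320 in WT skin and 2083 and 1716 against 1838 and 1329 in cKO skin, so its areas were apart in WT mice and overlapped in cKO mice. The falls of at least 1 were in both genotypes for N, AJ and AQ, in WT mice alone for B, O, Q, U, V, AB and AI, and in cKO mice alone for AC and AH. Among them, N, AQ, U, Q and O lie near each other in the deposited table, as do AC and AH. The counts of falls are therefore not over independent probe sets. In B and V the WT fall goes with 1 array: unaffected WT imiquimod replicate 1 read 2155 and 1143, and replicate 2 read 243 and 317. The falls of N go with replicate 1 of unaffected imiquimod skin in each genotype. That replicate read 98.9 in WT and 104 in cKO mice, and replicate 2 read 19.1 and 29.1. Injured imiquimod skin read at most 25.5 in N, where the added 16 sets much of the log2 value.

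Unaffected WT recovery skin was uneven in these probe sets. Replicate 2 was higher than replicate 1 in 41 of 45, with a median log2 difference of 0.86 and 22 members apart by at least 1. Over the 26310 probe sets that passed a filter on low signal, the median was 0.01 and 51.8% were higher in replicate 2. The 251 probe sets that met both wax conditions but rose with imiquimod, a group chosen after the values were seen, had a smaller median, 0.22, but a like share of 86.1% was higher in replicate 2. The members' median intensity was 133 on replicate 1 and 313 on replicate 2, against 698 and 676 on the wax-stripped WT arrays. Set against replicate 2 alone, wax-stripped WT skin was still higher by at least 1 in 30 of 45, and against replicate 1 alone in all 45. By contrast, the wax-stripped WT arrays differed by a median of -0.03.

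**Figure D2:**
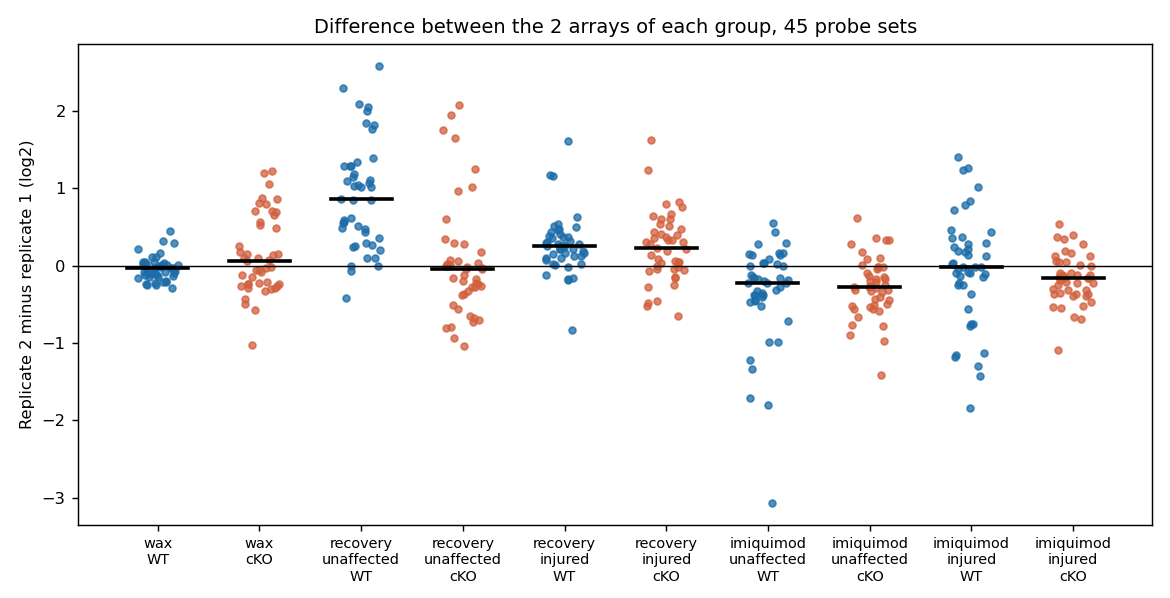
Difference between replicate 2 and replicate 1 in log2(intensity + 16) for each of the 45 probe sets (dots; WT blue, cKO orange) in the 10 groups, with the median as a bar. In unaffected WT recovery skin 41 of 45 dots lie above 0.

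Injured recovery skin, which had no part in the choice, was above unaffected recovery skin in WT mice for 41 of the 45, with a median log2 difference of 0.86. In cKO mice 31 were above, with a median of 0.39. These sizes hang on the unaffected arrays: the WT median was 0.27 without unaffected WT replicate 1 (37 above) and 1.32 without replicate 2 (44 above), and the cKO median was 0.12 without unaffected cKO replicate 2 (30 above). The cKO count moved with the injured arrays too, to 27 above without injured cKO replicate 2 and 35 without replicate 1. Over all probe sets tested the medians were -0.06 in both genotypes. The unaffected arrays were the low side of the rule, which favours positive differences here. Injury also cannot be told apart here from the mismatch of the injured arrays with their labelled sex. Both injured arrays lay above both unaffected arrays for 32 members in WT mice (30.9% of all probe sets tested) and below them for 1 (40.3% of all). In cKO mice these counts were 18 (35.1% of all) and 7 (44.4% of all).

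Members differed widely in this comparison. H read 1180 and 1309 in injured and 90.9 and 426 in unaffected WT recovery skin, a log2 difference of 2.53. In cKO mice it read 789 and 836 against 430 and 201, a difference of 1.41. Injured and unaffected areas did not overlap, and in WT mice the injured level was close to that after wax stripping, at 1336 and 1361. X read 728 and 865 in injured WT skin and 1218 and 1186 in injured cKO skin, against 125 and 239 and against 356 and 217 in the unaffected areas. The differences were 2.09 in WT and 2.05 in cKO mice. In cKO mice its injured recovery level was above its wax level of 862 and 731.

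Q, AQ and O, bright members that lie near each other in the deposited table, were higher in injured skin in WT mice. Q read 9847 and 12297 in injured and 4144 and 3949 in unaffected WT recovery skin, a difference of 1.44. In cKO mice it read 4654 and 7058 against 1629 and 5137. AQ read 3968 and 4863 against 1754 and 1883 in WT mice and 2406 and 3768 against 1297 and 2545 in cKO mice. In both, the areas were apart in WT mice and overlapped in cKO mice, where replicate 2 of unaffected skin was high. O read 2139 and 3325 against 642 and 691 in WT mice, a difference of 1.98, and 892 and 1561 against 258 and 1040 in cKO mice, where the areas overlapped.

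At the other end, V read 149 and 218 in injured and 250 and 464 in unaffected WT recovery skin, and 113 and 159 against 222 and 286 in cKO skin. Its injured arrays lay below the unaffected ones in both genotypes, with differences of -0.86 in WT and -0.84 in cKO mice. B also had lower means in the injured areas, at 254 and 592 in WT and 243 and 252 in cKO mice. The difference was below 0 in both genotypes for B, L, N and V, and at least 1 in both for 7 members (H, I, M, O, P, U and X).

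**Figure D3:**
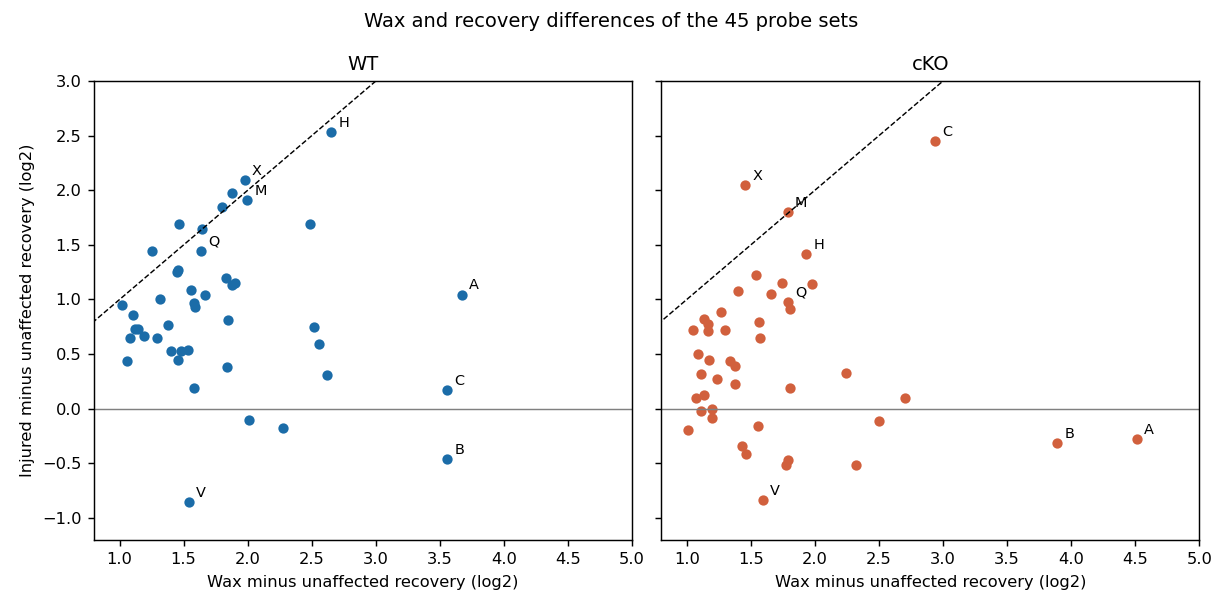
Injured minus unaffected recovery skin (vertical axis) against wax minus unaffected recovery skin (horizontal axis) for the 45 probe sets in WT and cKO mice, both in log2(intensity + 16). The axes share the unaffected recovery arrays; on the dashed line the differences are equal, and A and B lie far below it.

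Wax-stripped skin was above injured recovery skin in 39 of 45 members in WT and 43 of 45 in cKO mice, with median log2 differences of 0.63 and 0.93. The wax arrays were the high side of the rule, which favours this direction. Nor can the condition be told apart here from the mismatch of the injured recovery arrays with their labelled sex. Both wax arrays lay above both injured recovery arrays for 35 in WT mice (28.8% of all probe sets tested) and for 39 in cKO mice (30.9% of all). Of the 251 wax-raised probe sets that rose with imiquimod in 1 or both genotypes, wax was above injured recovery skin for 124 in WT and 123 in cKO mice. The difference between this group and the members was not tested. B had the widest gap in WT mice, 4.02, and A in cKO mice, 4.80. By mean intensity, wax was the highest of the 5 conditions for 38 members in WT mice and 43 in cKO mice; injured recovery skin was highest for M, O, P, U, X, AD and AI in WT mice and for M and X in cKO mice. In Q the WT groups overlapped, with injured recovery skin at 9847 and 12297.

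The comparison of genotypes in injured recovery skin used no array of the rule. There 42 of the 45 probe sets had a lower mean in cKO than in WT mice, with a median log2 difference of -0.56. Over all probe sets tested the median was 0.01 and 47.2% were lower. Both cKO arrays lay below both WT arrays in 35 members, where 22.8% of all probe sets did so, and above them in 3, where 29.7% did. Members share arrays and in part profiles, so these counts are not over independent probe sets. Without any 1 of the 4 arrays, 40 to 42 were lower, and the median lay between -0.68 and -0.40. These arrays were uneven in the members too. Replicate 2 was higher than replicate 1 for 39 in WT mice (53.2% of all probe sets tested), with a median log2 difference of 0.26. In cKO mice replicate 2 was higher for 31 (51.8% of all), with a median of 0.23. Of the 251 wax-raised probe sets that also rose with imiquimod in 1 or both genotypes, 109 were lower in cKO mice, with a median of 0.03. The difference between this group and the members was not tested.

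The limma test (Benjamini-Hochberg adjusted p under 0.05) could be made for the 40 members that passed the filter; C, F, M, N and R were below it. The filter was on the mean over all arrays, to which the wax arrays add. Singly, few of these differences passed the test, though 18 members (17 lower, 1 higher) had an unadjusted p under 0.05, as did 13.4% of all probe sets. Limma called 3 of the 40 members tested, W and AS lower and Z higher in cKO mice, where 0.277% of all probe sets were called lower and 0.722% higher. W read 210 and 300 in injured WT and 101 and 130 in injured cKO recovery skin, a log2 difference of -1.03 ± 0.21 (SE; limma adjusted p = 0.0392). AS read 357 and 376 against 216 and 226, a difference of -0.69 ± 0.15 (SE; limma adjusted p = 0.0419). The genotypes did not overlap in either. Z went the other way, with 364 and 371 in WT and 626 and 515 in cKO skin, a difference of 0.61 ± 0.13 (SE; limma adjusted p = 0.0419). The calls were weak: 1 was left without injured WT replicate 1, 0 without any other array of the 4 and 0 with only these arrays.

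The largest difference in either direction was in members that were not called. A read 357 and 829 in injured WT and 70.8 and 116 in injured cKO recovery skin, a log2 difference of -2.39 ± 0.63 (SE; limma adjusted p = 0.111). C read 24.4 and 20.3 in injured WT and 442 and 371 in injured cKO recovery skin. C was below the signal filter and was not tested; without the filter its difference was 3.46 ± 0.50 (SE; limma adjusted p = 0.00591), and it was then the only member called. Its cKO level there was close to that of wax-stripped skin, and unaffected cKO recovery skin read 21.5 and 142.

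**Figure D4:**
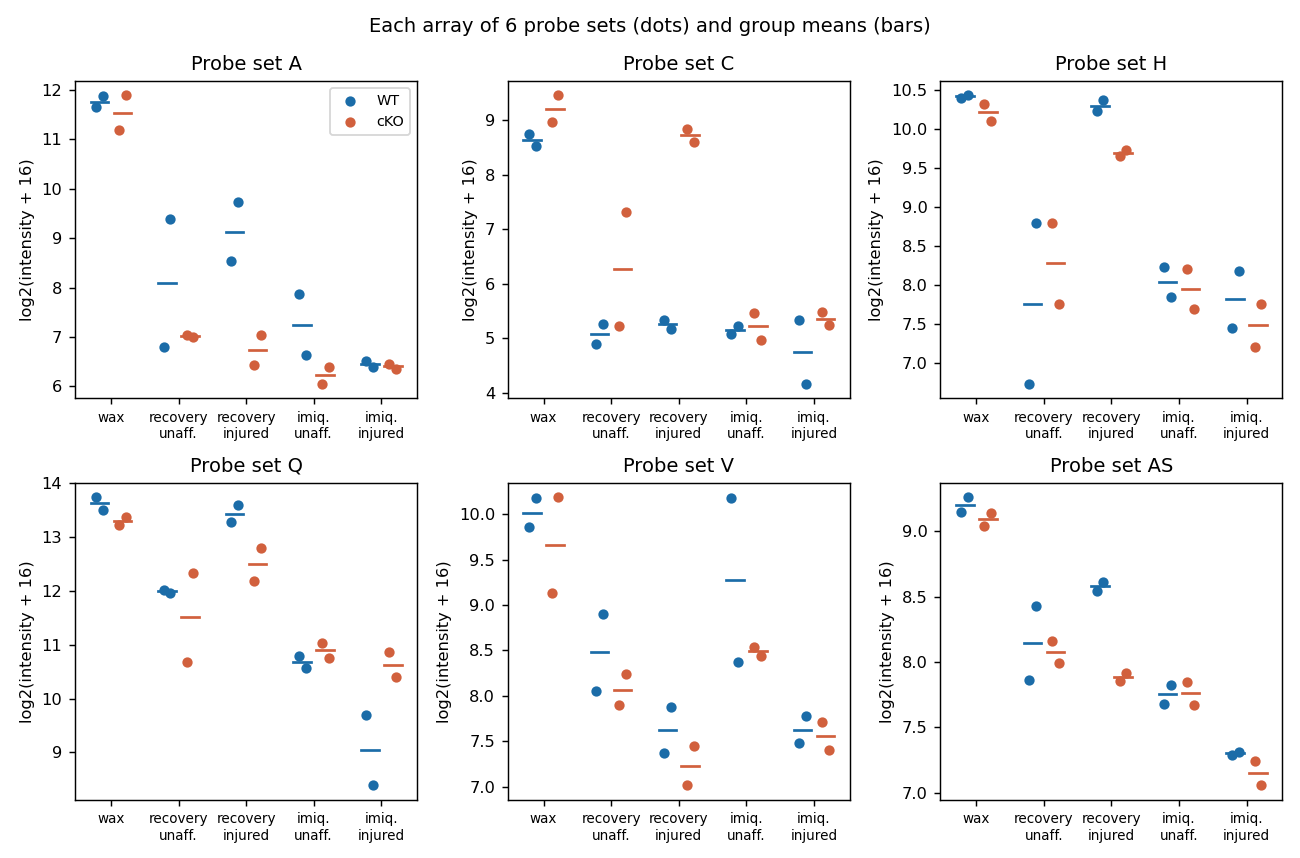
Intensity of probe sets A, C, H, Q, V and AS on each array (dots, log2(intensity + 16), with a separate vertical scale per panel) and group means (bars), WT in blue and cKO in orange. In injured recovery skin C is high in cKO mice alone, and A, H, Q and AS are lower in cKO than in WT mice.

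In wax-stripped skin 38 of the 45 had a lower mean in cKO than in WT mice, with a median log2 difference of -0.18. Over all probe sets tested the median was 0.006 and 48.0% were lower. Both cKO arrays lay below both WT arrays in 15 of them (21.2% of all probe sets tested) and above in 3 (20.3% of all), and the median differences in the other conditions apart from injured recovery skin lay between -0.08 and 0.02. The arrays of these 4 conditions were all chosen on, in both genotypes alike.

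The difference between injured and unaffected recovery skin was larger in WT than in cKO mice in 41 of the 45, with a median gap of 0.53. The share of all probe sets that did so is not given, so this count has no background to be set against. It also shares the injured arrays with the genotype difference in injured recovery skin and is not separate from it. The comparison includes the uneven unaffected WT arrays: without replicate 1 of them 27 of 45 were larger in WT mice, with a median gap of 0.10, and without replicate 2, 43 were, with a median gap of 0.90.

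**Figure D5:**
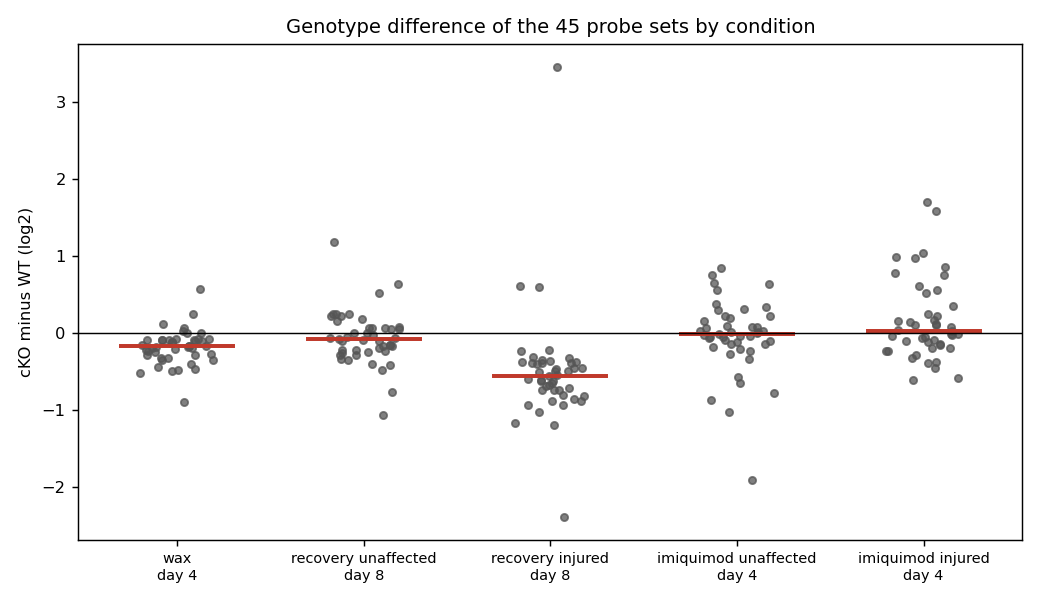
Difference cKO minus WT in log2(intensity + 16) for each of the 45 probe sets (dots) in the 5 conditions, with the median as a bar. In injured recovery skin 42 of 45 dots lie below 0, and the highest dot there is C.

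Some members lay close together in the deposited table. With a window of 20 rows, 14 of the 45 had another member nearby (31.1%), against 4.13% of all distinct probe sets. They formed 5 runs: N, AQ, U, Q and O; AO, AC and AH; L and A; B and E; and AM and AN. Over the 20 arrays the profiles of AO, AC and AH correlated at r = 0.985 to 0.996. Those of AM and AN correlated at 0.966, B and E at 0.955 and L and A at 0.892. The run of N, AQ, U, Q and O was looser, at 0.693 to 0.987. The median over all 990 pairs of members, which share all arrays and the rule, was 0.786. The 45 rows are therefore not 45 separate measurements.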

How the data were processed

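Per the labels' protocols, dorsal epidermal RNA was labelled with biotin and read on Affymetrix Gene ST arrays. The authors deposited 1 linear intensity per probe set and array, made with Affymetrix Expression Console and PLIER, per the submitters' processing notes; the sources used here name no version, genome build or normalization. Array medians lay between 169 and 200 intensity units, and values were used as deposited. Arrays give no count depth, and their number limits the precision.

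Of 35556 rows, 476 repeated another row on all arrays. Rows under the 25th percentile of mean log2(intensity + 16) were left out of tests, which left 26310 and 40 of the 45 members. A difference is on that scale and understates changes of dim probe sets. Limma 3.58.1 in R 4.3.3 fitted group means over all 20 arrays (lmFit, eBayes), with Benjamini-Hochberg adjustment over all probe sets tested; only the genotype test in injured recovery skin compares no arrays that chose the members (their spread enters its error), and other planned fits are not used as tests; it was tested on simulated data. P-values measure the spread between arrays labelled biological replicates. Members described singly were the 6 with the widest wax difference, the 3 brightest, the extremes in recovery and imiquimod skin, those called between genotypes and those at the thresholds; other lettered members were named after their values were seen; the values of 1 member at the thresholds are not reported here. The members and lists were chosen with earlier results of these data known. Alternatives were pseudocounts of 1 and 64, quantile normalization, other filters, eBayes with trend and robust settings, fewer arrays, a replicate block and leaving out each array.

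Replicate numbers were not used as pairs in the main fit. Deviations of same-numbered arrays correlated between -0.26 and 0.29 over 45 pairs of groups, and 11 pairs were over 0.1. These pairs mix genotypes and conditions, so the range cannot decide whether injured and unaffected areas came from the same mice.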

Additional observations from a re-analysis of the deposited data

Results flagged for a closer look

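In AS, both injured WT recovery arrays lay above both unaffected ones and both injured cKO arrays lay below theirs, with log2 differences of 0.43 in WT and -0.19 in cKO mice. The unaffected arrays belong to the rule, so no test of the difference between these is given.

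In AD, both wax-stripped WT arrays lay below both injured WT recovery arrays (1 pair of arrays by less than 1 intensity unit) and both wax-stripped cKO arrays lay above theirs, with log2 differences of -0.19 in WT and 0.38 in cKO mice. The difference between these was not tested.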

How the results depend on the processing

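The number of probe sets chosen was 45, and 11 met the thresholds on every array, 23 met thresholds 0.2 stricter and 108 met thresholds 0.2 looser; leaving out 1 array gave 32 to 56. The genotype calls in injured recovery skin (3) were 0 when fitted on the compared arrays alone. Without a filter 1 member was called, C, which was not among the 3, and none of the 3 was called. The calls were 2 with a pseudocount of 1, with quantile normalization and under the 50th percentile filter. With a pseudocount of 64 they were 4. Other planned limma fits include arrays of the rule, so their calls draw on values that chose the members and support nothing. They are given here for their dependence on the processing only. In the recovery and wax fits, the shares of all probe sets count calls in either direction, while the members called with all arrays were all higher. Injured against unaffected recovery skin gave 20 calls in WT mice (32.6% of all probe sets were called), 13 on the compared arrays alone and 9 to 29 with 1 array left out. In cKO mice it gave 7 (49.8% of all), all higher, but 12 on the compared arrays alone, of which 9 were higher and 3 lower, and 4 to 8 with 1 array left out. Wax against injured recovery skin gave 14 in WT mice (11.6% of all), 25 on the compared arrays alone, 9 under the 50th percentile filter and 5 to 11 with 1 array left out, and in cKO mice 18 (10.9% of all), 10 under that filter and 8 to 16. The mean genotype difference gave 0 (10 at an unadjusted p under 0.05 in limma), 1 with a pseudocount of 64, with no filter, with trend and robust settings and with the 50th percentile filter, and 0 to 5 with 1 array left out; the difference of recovery responses gave 0 (7 unadjusted) and 0 to 4. Over all probe sets tested, 15.0% had an unadjusted p under 0.05 in limma for the mean genotype difference. For the difference of recovery responses 8.84% did. The number with a larger recovery difference in WT mice, 41, was 27 to 43 with 1 array left out. The causes were not tested. The lone array of a group is then assumed to vary like the others. With the replicate block the genotype calls in injured recovery skin were 2 in place of 3, and 45 probe sets were chosen. The other counts of means above or below 0, all added after seeing the data, stayed within 1.5 times.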
